A study of Mus musculus with 9 samples.

Results

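The Fos, Jun and Egr genes encode transcription factors that neurons switch on within minutes of being stimulated. The members described here are Fos, Fosb and Fosl2 of the Fos family, Jun, Junb and Jund of the Jun family, and Egr1, Egr2, Egr3 and Egr4. They were found in the count table by their NCBI gene IDs, through a RefSeq table that pairs IDs with symbols. All 10 were found among 36172 features, and all 10 were among the 15144 genes that passed the filter on low counts and were tested. The rule uses names and no measured value, but earlier results of these data were known when the genes were chosen.

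RNA was sequenced from the medial prefrontal cortex of DBA2/J mice, an inbred strain, in 3 groups of 3 libraries. The NS group was not stressed and was given saline, which the design text calls vehicle. Both other groups are of the SA:ANH subtype, a term whose meaning is not given in the sources used here, and had been exposed to social defeat, in which a mouse repeatedly meets an aggressor, for 5 days. The SA:ANH-vehicle group was given what the titles call vehicle and the treatment labels call saline, and the SA:ANH-KDM5Ci group was given an inhibitor of KDM5C, a demethylase of lysine 4 on histone H3. They are called the vehicle and the inhibitor group below. The dose, the compound, the age and sex of the mice and the time from the last treatment to tissue collection are not given in the sources used here. Whether each library is a different mouse is also not stated in the labels. The p-values therefore speak of the spread between these libraries only, and that spread may be technical.

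Fos and Jun proteins are leucine zipper factors that bind DNA as pairs, Fos with Jun or Jun with Jun, and such a pair is called AP-1. Egr proteins bind GC-rich DNA through zinc fingers. In stimulated neurons, calcium and ERK signalling act on CREB and on SRF with its ELK partners, which already sit at the promoters of these genes, so that Fos, Junb, Egr1 and Egr2 RNA appears without new protein synthesis and decays again within hours. Jund is made more steadily. In the cortex these transcripts serve as marks of recent neuronal activity.

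The 200 bases before the annotated start are shown for the 3 members with the widest spread within groups (Fos, Junb and Egr2), for Jun, the member that passed a test between groups, and for Egr4, which passed one when a single library was left out. They come from RefSeq with GRCm38.p6, in which 8 of the 10 members (all but Egr1 and Egr3) were matched by symbol, and run 5′ to 3′ on the strand of the gene. Capitals mark matches to TGACG, the core of the cAMP response element that CREB binds, or its reverse complement, to TGACNTCA, a form of that element which Jun with ATF2 can bind, to the CArG box of SRF, and to TATAAA.
Fos, chr12:85473690-85473889, plus strand: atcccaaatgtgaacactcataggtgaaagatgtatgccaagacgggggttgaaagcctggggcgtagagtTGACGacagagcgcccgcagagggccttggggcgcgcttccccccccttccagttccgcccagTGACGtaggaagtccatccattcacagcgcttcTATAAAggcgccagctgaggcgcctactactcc
Junb, chr8:84978749-84978948, minus strand: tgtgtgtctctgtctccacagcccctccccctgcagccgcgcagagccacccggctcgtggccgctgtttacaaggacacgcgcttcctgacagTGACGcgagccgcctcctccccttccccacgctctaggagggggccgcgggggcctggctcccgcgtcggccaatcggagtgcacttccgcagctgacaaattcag
Egr2, the third of 5 annotated starts, chr10:67537669-67537868, plus strand: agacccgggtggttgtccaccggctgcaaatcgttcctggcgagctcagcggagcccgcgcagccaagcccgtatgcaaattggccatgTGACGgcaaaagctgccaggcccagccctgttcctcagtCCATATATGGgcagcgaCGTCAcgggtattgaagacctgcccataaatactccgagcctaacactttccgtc
Jun, chr4:95052223-95052422, minus strand: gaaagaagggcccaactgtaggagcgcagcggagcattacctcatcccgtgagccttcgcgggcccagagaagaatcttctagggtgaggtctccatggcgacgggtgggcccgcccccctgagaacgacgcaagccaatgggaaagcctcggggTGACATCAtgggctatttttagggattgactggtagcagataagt
Egr4, chr6:85513590-85513789, minus strand: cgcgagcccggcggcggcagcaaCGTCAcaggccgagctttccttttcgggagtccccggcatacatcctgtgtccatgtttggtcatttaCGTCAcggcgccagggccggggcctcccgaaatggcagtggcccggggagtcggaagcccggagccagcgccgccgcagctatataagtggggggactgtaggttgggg

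Matches were sought in windows from 250 bases before to 50 bases after the start, and positions count back from the base just before the start, as -1. In the Fos window TGACG began at -129 and -66 and TATAAA at -33. Junb held TGACG at -106 and, at the first base of its annotated start, TATAAA. GENCODE places the start of Junb at 84978718, downstream of the RefSeq start at 84978748 used here. Both Junb positions therefore depend on the annotation. This Egr2 window, which overlaps those of the last 2 starts, held a CArG box at -72 between TGACG matches at -111 and, on the reverse strand, at -55. The window of the first Egr2 start held no match, and that of the second held a CArG box at -72 and no TGACG. Jun held TGACATCA at -45, and Egr4 held TGACG on the reverse strand at -177 and -109. Fosb held TGACG at -60 followed by a match to GCGNGGGCG, the Egr binding site, at -50, and Fosl2 held GCGNGGGCG at -79. Of 32851 such windows in the table, 20.8% held TGACG on either strand, 8.83% TGACNTCA, 1.63% a CArG box, 5.55% GCGNGGGCG and 8.32% TATAAA on the strand of the gene. The full element TGACGTCA, in 1.79% of windows and counted within both TGACG and TGACNTCA, was in none of these windows, nor was TGANTCA, the AP-1 site, which 7.81% held. The Jund window starts from a RefSeq start that lies well upstream of the GENCODE one, and it held no match.

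Libraries held from 29845097 to 36033714 counts in NS, from 33733470 to 42196472 in the vehicle group and from 30525714 to 40700115 in the inhibitor group. Marker genes were read as well: 8 markers of excitatory neurons summed to between 7058 and 7690 CPM (counts scaled to the effective library size) in every library. No marker of any list used here was at 0. The list was not made to tell brain regions apart, so it does not check the label of medial prefrontal cortex. Kdm5c RNA was at 62.1 ± 0.77 CPM in NS, 63.8 ± 2.94 in the vehicle group and 58.3 ± 1.01 in the inhibitor group (SD, n = 3), which does not check an inhibitor of the protein. In bulk tissue, fewer cells with a transcript and less of it per cell cannot be told apart.

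All 10 members were higher in NS replicate 1 than in any other of the 9 libraries. Fos was 5.50 times, Egr2 5.99 times, Junb 3.25 times and Egr1 2.79 times the mean of the other NS libraries there. For these same 4 genes the next highest library was vehicle replicate 1. Among the inhibitor libraries the highest was at most 1.47 times the lowest for any member. Among all genes tested, NS replicate 1 was the highest of the 9 libraries for 10.9%.

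**Figure D1:**
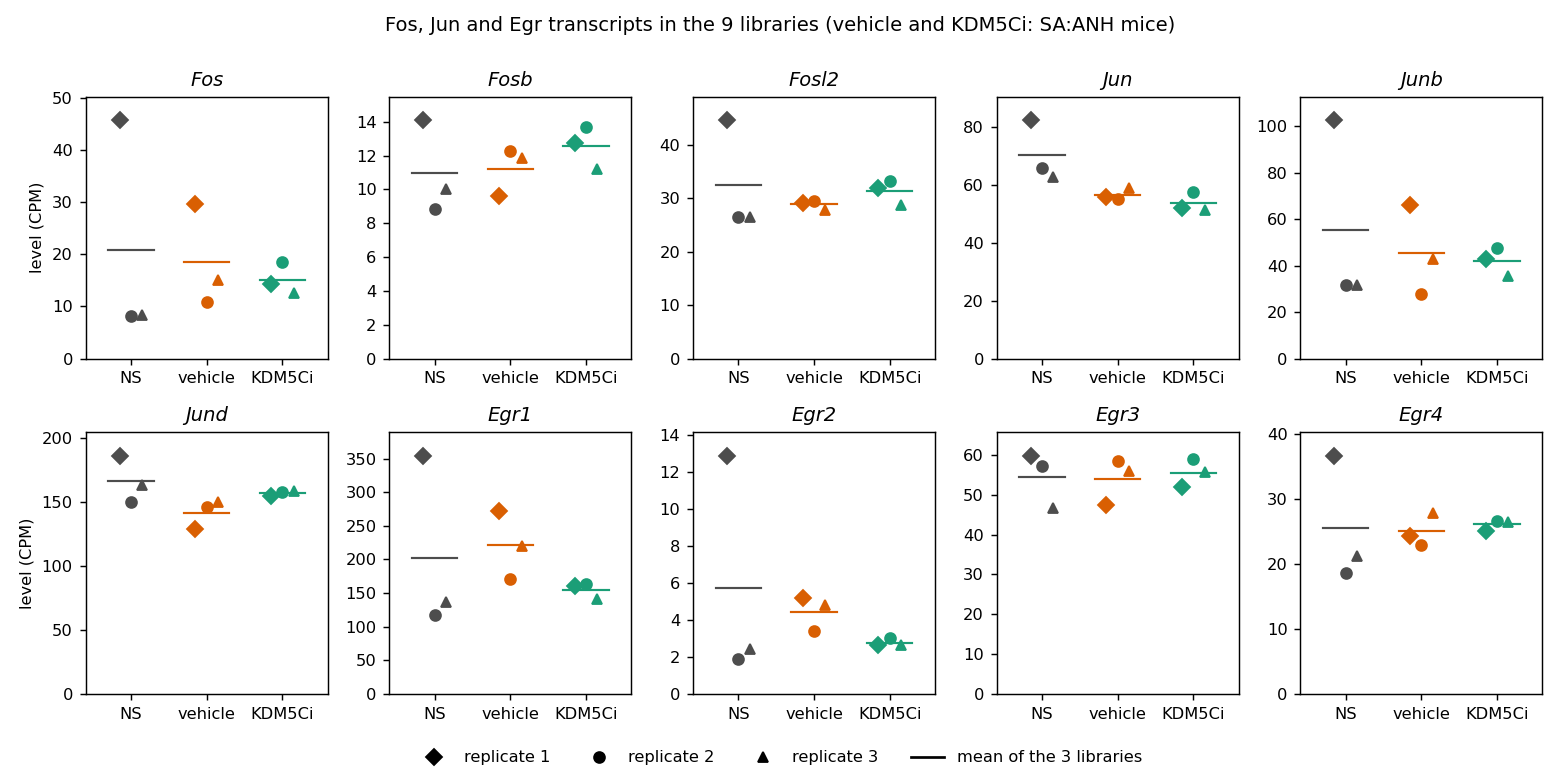
Level of each member in CPM (vertical axes from 0) in the 9 libraries; points are libraries, shaped by replicate number, and lines are group means of 3. NS replicate 1 is the highest point in all 10 panels, at 45.7 CPM for Fos while NS replicates 2 and 3 are at 8.19 and 8.43 CPM.

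Fos (NCBI gene 14281, chromosome 12, 85473890 to 85477274 in GRCm38.p6), the partner of Jun in the classical AP-1 pair, was at 45.7, 8.19 and 8.43 CPM in NS replicates 1, 2 and 3. It was at 29.7, 10.8 and 15.1 CPM in the vehicle libraries and at 14.3, 18.5 and 12.6 CPM in the inhibitor libraries. The vehicle and inhibitor ranges thus lay inside the NS range. Fosb (14282, chromosome 7, 19302696 to 19310118), whose truncated and stable product builds up with repeated stimulation, was at 14.1, 8.835 and 10 CPM in NS, 9.61, 12.3 and 11.8 CPM in the vehicle group and 12.7, 13.7 and 11.2 CPM in the inhibitor group. The counts are per gene, so the truncated and the full-length form were not separated. Fosl2 (14284, chromosome 5, 32136472 to 32157840), which encodes the Fos-related protein Fra-2, was at 44.5, 26.4 and 26.5 CPM in NS, 29.15, 29.5 and 27.8 CPM in the vehicle group and 31.9, 33.3 and 28.75 CPM in the inhibitor group. Its 2 lower NS libraries were below all 6 libraries of the stressed groups. The same held for Fos.

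Jun (16476, chromosome 4, 95049036 to 95052222), the DNA-binding partner common to most AP-1 pairs, was the only member whose 3 NS libraries, at 82.4, 66.0 and 62.7 CPM, all lay above all 6 libraries of the stressed groups. Those were at 55.8, 55.0 and 58.9 CPM in the vehicle group and at 52.0, 57.7 and 51.5 CPM in the inhibitor group. Junb (16477, chromosome 8, 84976909 to 84978748), a weaker activator than Jun that is induced along with Fos, was at 102, 31.5 and 31.4 CPM in NS, 66.1, 27.7 and 43.0 CPM in the vehicle group and 42.7, 47.6 and 35.35 CPM in the inhibitor group. As for Fos, NS replicate 1 and vehicle replicate 1 were its highest libraries. Jund (16478, chromosome 8, 70697739 to 70700616), the steadily made Jun protein, was at 186, 149.8 and 163 CPM in NS, 129, 146 and 149.7 CPM in the vehicle group and 154, 157 and 158 CPM in the inhibitor group. Its lowest NS library and its highest vehicle library were thus nearly level. Each Jun gene overlaps a gene on the opposite strand in GENCODE's annotation: Junos for Jun, Prdx2 for Junb and Gm11175 for Jund. The library kit was strand-specific, but whether counting used the strand is not stated in the labels. Reads of these pairs may therefore not have been kept apart in the counts. Prdx2 was at 212 ± 11.2 CPM in NS, 209 ± 11.02 in the vehicle group and 219 ± 19.0 in the inhibitor group (SD, n = 3). Its part in the Junb values was not tested, and the other 2 neighbours were not analysed here.

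Egr1 (13653, chromosome 18), the Egr gene most used as an activity mark, was at 354, 117 and 137 CPM in NS, 272.5, 170 and 220 CPM in the vehicle group and 160, 163 and 142 CPM in the inhibitor group. All 3 vehicle libraries lay above all 3 inhibitor libraries. Egr2 (13654, chromosome 10, 67534469 to 67542188), also the master factor of myelination in Schwann cells, was at 12.9, 1.895 and 2.41 CPM in NS, 5.20, 3.39 and 4.795 CPM in the vehicle group and 2.625, 3.04 and 2.64 CPM in the inhibitor group. It had the fewest reads of the members, from 68 to 456 counts per library, and again the vehicle libraries lay above the inhibitor libraries. Egr3 (13655, chromosome 14, 70077317 to 70082613), which muscle spindles need in order to form, was at 59.75, 57.1 and 46.7 CPM in NS, 47.4, 58.4 and 56.0 CPM in the vehicle group and 51.8, 59.0 and 55.6 CPM in the inhibitor group. Egr3 was the member for which NS replicate 1 stood out least, at 1.15 times the mean of the other NS libraries. Egr4 (13656, chromosome 6, 85511121 to 85513589), the remaining member of the family, was at 36.6, 18.6 and 21.2 CPM in NS, 24.3, 23.0 and 27.8 CPM in the vehicle group and 25.1, 26.7 and 26.5 CPM in the inhibitor group. In 5 of the members (Fos, Fosl2, Egr1, Egr2 and Egr4), NS replicates 2 and 3 were below all 6 libraries of the stressed groups while NS replicate 1 was above them. That order was looked for after the values were seen. The share of all genes with the same order was not counted, so how common it is cannot be said.

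Levels of different genes were compared as CPM per kilobase of exons, with exon lengths from GENCODE. Over the 9 libraries Jund was the most abundant member at 92.9 ± 9.11 CPM per kilobase (SD, n = 9), then Egr1 at 43.0 ± 17.1, Junb at 20.65 ± 10.3 and Jun at 18.9 ± 2.99. Egr3 at 12.4 ± 1.11 and Egr4 at 11.9 ± 2.36 stood in the middle. The lowest were Fos at 7.715 ± 5.20, Fosl2 at 3.19 ± 0.579, Fosb at 1.86 ± 0.292 and Egr2 at 1.27 ± 0.999 CPM per kilobase. Among neighbours in this order, the ranges over the 9 libraries were apart for Jun and Egr3 and for Fosl2 and Fosb. The ranges of the other neighbours overlapped, which does not show that their order changed within a library. The annotations differ in length for some members, so these levels depend on the one used. Jund has 1668 exonic bases in GENCODE and a RefSeq span of 2878, Egr1 4484 and 3750, and Junb 2301 and 1840. Per kilobase of the RefSeq gene span, introns included, Jund was at 53.8 CPM, Egr1 at 51.4 CPM and Junb at 25.8 CPM.

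A list of 30 further genes that activity induces early was then set beside the members. All 30 were highest in replicate 1 among the NS libraries, with a median ratio to the mean of the other NS libraries of 1.49, where 38.6% of all genes tested were highest in that library. In the vehicle group 19 of 30 were highest in replicate 1 (median ratio 1.11, with 39.3% of all genes), and in the inhibitor group 9 of 30 (median ratio 1.00, with 31.3% of all genes). For the 10 members these counts were 10, 4 and 0. Arc, a synaptic protein gene, was at 338, 63.5 and 35.8 CPM in NS, 224, 47.65 and 104 CPM in the vehicle group and 137, 138 and 113 CPM in the inhibitor group. Npas4, a factor that answers to calcium influx, was at 24.96, 8.33 and 8.26 CPM in NS and at 28.8, 8.82 and 10.9 CPM in the vehicle group, with 6.30 to 8.37 CPM in the inhibitor group. Both genes were chosen after their values were seen. Of 14 late effector genes, which activity induces over hours, 7 were highest in replicate 1 among the NS libraries and 2 among the vehicle libraries. Over all 9 libraries 13 of the 30 early genes were highest in NS replicate 1 and 8 in inhibitor replicate 3, against 10.9% and 19.6% of all genes tested.

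**Figure D2:**
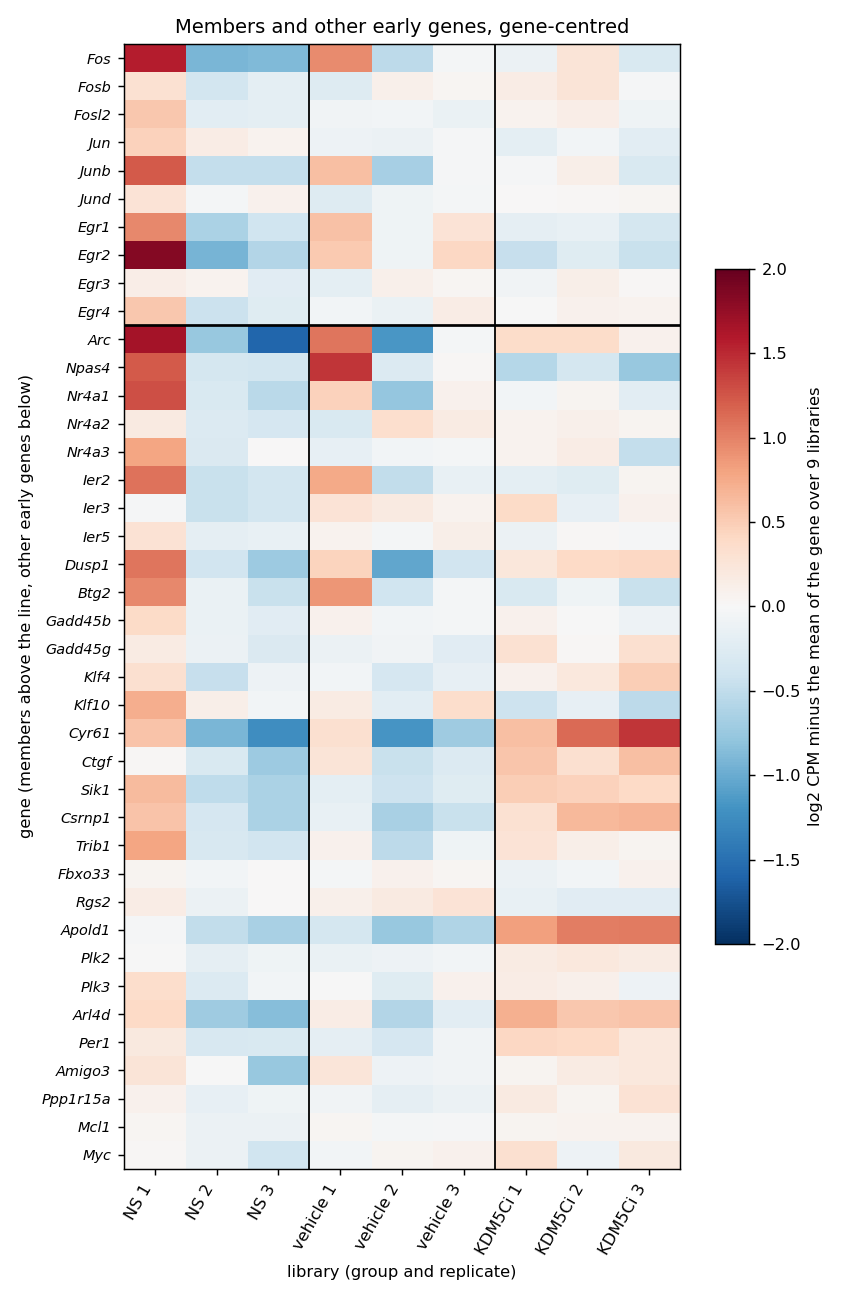
Log2 CPM of each gene minus its mean over the 9 libraries (colour, red high and blue low), for the 10 members above the line and the 30 other early genes below it; columns are libraries in groups of 3. The NS replicate 1 column is on the red side for all 10 members, though only palely for Egr3, and 13 of the other early genes are highest there.

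Markers of other cells also differed between these libraries, and their part in the members' values was not tested. The 8 oligodendrocyte markers, all detected, summed to 3044, 1936 and 1495 CPM in NS replicates 1 to 3 and to 3055, 1952 and 1947 CPM in the vehicle libraries, so replicate 1 was highest in both groups. They summed to 3573, 2734 and 3251 CPM in the inhibitor libraries. The members summed to 938.5, 485 and 509 CPM in NS, 669, 536.5 and 615 CPM in the vehicle group and 548, 580 and 524 CPM in the inhibitor group. The 8 striatal neuron markers summed to 332, 223 and 196.5 CPM in NS, 293, 237 and 223 CPM in the vehicle group and 629, 273 and 428 CPM in the inhibitor group. The 8 markers of meninges and fibroblasts were lowest among NS libraries in replicate 1 (102 against 148 and 161 CPM) and highest among vehicle libraries in replicate 1 (185 against 119 and 115 CPM). Excitatory neuron markers summed to 7478, 7690 and 7402 CPM in NS and did not set replicate 1 apart.

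The spread of the members within groups was set against that of all genes. The pooled within-group SD of log2 CPM was 0.94 for Fos, 0.88 for Egr2, 0.68 for Junb and 0.54 for Egr1, at percentiles 99.8, 99.7, 99.1 and 97.7 of the 15144 genes, whose median was 0.10. Egr4 (0.31), Fosl2 (0.26) and Fosb (0.24) were at percentiles 89.4, 85.3 and 83.5, and Egr3 (0.15), Jun (0.13) and Jund (0.11) at 69.8, 65.1 and 56.2. Among 1001 genes of like level the members stood higher, with Fos, Junb, Egr1 and Egr2 at 100, Egr4 at 98.7, Fosl2 at 98.6, Fosb at 95.8, Egr3 at 94.4, Jun at 92.8 and Jund at 89.3. By group the SD of Fos was 1.42 in NS, 0.74 in the vehicle group and 0.28 in the inhibitor group, and that of Egr2 was 1.49, 0.32 and 0.12. Without NS replicate 1 the pooled SD was 0.50 for Fos and 0.42 for Junb, still at percentiles 97.2 and 95.1. It was 0.24 for Egr1 and for Egr2, at percentiles 83.9 and 84.6, and 0.07 for Fosl2, at percentile 34.2. The SD was largest in NS for all 10 members, and it was smaller in the inhibitor than in the vehicle group for all but Fosl2 and Jun. No test of this order was made.

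**Figure D3:**
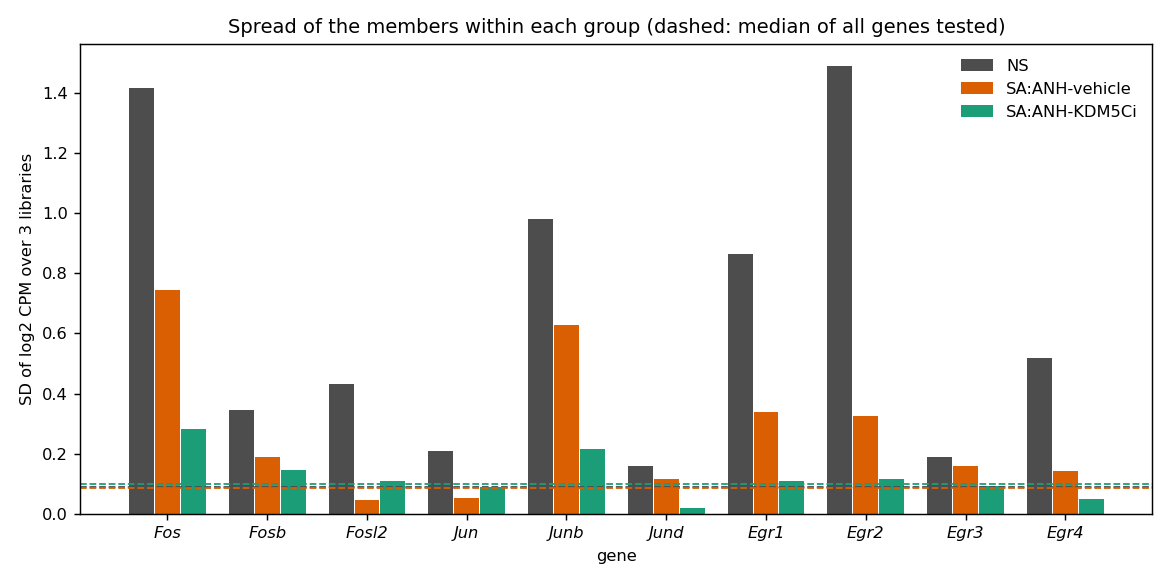
SD of log2 CPM over the 3 libraries of each group (bars from 0) for the 10 members; dashed lines give the median SD of all genes tested in each group. The NS bars are the tallest for all 10 members, and those of Fos (1.42) and Egr2 (1.49) are far above the dashed lines.

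SA:ANH-vehicle against NS compares stressed with non-stressed mice, and stress and the SA:ANH subtype cannot be told apart in it. None of the 10 members passed edgeR's quasi-likelihood test at a Benjamini-Hochberg adjusted p of 0.05 over all genes, and 0.0132% of all genes did. DESeq2 and limma-voom also called 0 members. The lowest adjusted p-values were those of Jun, with 70.3 ± 10.5 CPM in NS and 56.6 ± 2.06 in the vehicle group (SD, n = 3), for a fitted log2 change of -0.31 (SE 0.09, adjusted p = 0.329 in edgeR), and of Jund, with 166 ± 18.3 and 142 ± 11.01 CPM, for a fitted log2 change of -0.23 (SE 0.07, adjusted p = 0.399 in edgeR). These 2 were also the only members under an unadjusted p of 0.05, where 8.21% of all genes were, and the only ones whose groups did not overlap, both lower in the vehicle group. Over all genes 15.1% had groups that did not overlap and 6.81% were lower in that way. Of the fitted changes 8 were negative, with a median of -0.17 over the members and 0.00 over all genes. Red blood cell markers were higher in both stressed groups: the 4 found of 5 summed to between 235 and 272 CPM in NS, 406.5 and 466 in the vehicle group and 372 and 495.5 in the inhibitor group, with 1 of 4 called against NS in the vehicle group and 4 of 4 in the inhibitor group. Their part in the members was not tested.

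Without NS replicate 1 the fitted change of 6 of the 10 members had the other sign. Fos had 20.8 ± 21.6 CPM in NS and 18.5 ± 9.94 in the vehicle group, for a fitted log2 change of -0.16 with an SE of 0.76. Without NS replicate 1 it was 1.17 (SE 0.48, adjusted p = 0.565 in edgeR). In the same way Egr2 went from -0.37 to 1.07 (SE 0.20, adjusted p = 0.192), Egr1 from 0.12 to 0.80 (SE 0.19, adjusted p = 0.365) and Junb from -0.27 to 0.54 (SE 0.37, adjusted p = 0.722), all in edgeR. Then 8 of 10 members were positive, with a median of 0.30, and still none passed. Jun stayed negative at -0.18 (SE 0.06, adjusted p = 0.465 in edgeR). With NS replicate 3 left out instead, all 10 were negative.

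SA:ANH-KDM5Ci against SA:ANH-vehicle compares the inhibitor with vehicle in stressed mice. No member passed in edgeR, DESeq2 or limma-voom, while 2.51% of all genes were called in edgeR. Under an unadjusted p of 0.05 were 0 of 10 members and 14.2% of all genes. Egr1 had 155 ± 11.6 CPM in the inhibitor group and 221 ± 51.05 in the vehicle group, for a fitted log2 change of -0.51 (SE 0.45, adjusted p = 0.695 in edgeR). Egr2, with 2.77 ± 0.235 against 4.46 ± 0.953 CPM, was at -0.695 (SE 0.76, adjusted p = 0.760 in edgeR). The groups of these 2 genes did not overlap, nor did those of Jund, which at 157 ± 2.13 CPM was higher than with vehicle by 0.15 (SE 0.07, adjusted p = 0.415 in edgeR). These 3 of 10 members compare with 18.9% of all genes whose groups did not overlap in either direction.

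NS replicate 1 is in neither of these groups, but it takes part in the shared estimate of spread, the filter and the scaling. Without it Egr2 kept its size, at -0.69, with an SE of 0.17 and an adjusted p of 0.0520 in edgeR, and Egr1 was at -0.51 (SE 0.17, adjusted p = 0.201 in edgeR). Fos at -0.31 and Junb at -0.13 rested on vehicle replicate 1, and without that library they were at 0.23 (SE 0.89) and 0.25 (SE 0.64). Fosb, Fosl2, Egr3 and Egr4 had log2 fold changes from 0.04 to 0.16, and Jun was at -0.07. The median over the 10 members was -0.02. Markers moved between these groups as well: the 8 striatal, the 8 oligodendrocyte and the 8 interneuron markers all had positive fitted changes with none called in edgeR. The interneuron median was 0.14, and DESeq2 called 1 striatal marker. All 8 meningeal markers had negative fitted changes, of which Foxc1 (-0.94, adjusted p = 0.00547 in edgeR) and Lum (-1.04, adjusted p = 0.0329 in edgeR) fell. The Foxc1 call held with any 1 library left out, while that of Lum was lost without vehicle replicate 1 or 3 or any 1 inhibitor library (adjusted p up to 0.115). Of 6 oligodendrocyte precursor markers 2 were called higher, Olig2 (0.72) and Olig1 (0.47), but the Olig1 call was kept in only 2 of 9 fits with 1 library left out and the Olig2 call in 5 of 9. Of 7 mural cell markers Pdgfrb fell (-0.45, adjusted p = 0.00858 in edgeR), and of 9 endothelial markers 4 were called, Slc2a1 higher (0.88) and Cldn5 (-0.70), Kdr (-0.84) and Slco1a4 (-0.43) lower. These 5 calls held with any 1 library left out. The part of these markers in the differences of the members was not tested.

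SA:ANH-KDM5Ci against NS compares stressed mice given the inhibitor with non-stressed mice. Stress, subtype and inhibitor cannot be told apart in it, and it shares its libraries with the 2 comparisons above. Jun passed and was lower, at 53.7 ± 3.43 CPM in the inhibitor group and 70.3 ± 10.5 in NS, for a fitted log2 change of -0.39 (SE 0.09, adjusted p = 0.0297 in edgeR), or 0.763 of its level. It was the only one of 10 members to pass, against 3.97% of all genes called and 2.11% called lower. It was also the only member whose groups did not overlap, against 23.5% of all genes and 12% in that direction. The call was lost without NS replicate 2 (adjusted p = 0.0524), vehicle replicate 2 (0.0512), inhibitor replicate 1 (0.1165) or inhibitor replicate 3 (0.1295), and when only these groups were fitted (0.0661), all in edgeR. Without NS replicate 1 it held at -0.26 (SE 0.06, adjusted p = 0.0439 in edgeR). Cell markers differed in this comparison too. Called lower were the endothelial Cldn5 (-1.06), Kdr (-1.12) and Slco1a4 (-0.32), the mural Pdgfrb (-0.44) and the meningeal Foxc1 (-0.82), and called higher were the endothelial Slc2a1 (1.12), the precursor marker Olig2 (0.85), the interneuron marker Lhx6 (0.26) and the 4 red blood cell markers. With 1 library left out the Lhx6 call was kept in 2 of 9 fits and that of Slco1a4 in 3 of 9. Foxc1 and Alas2 were lost without NS replicate 3, and Hba-a1 without NS replicate 2 or 3. The part of these markers in the Jun difference was not tested.

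The other 9 members did not pass in the fit of all libraries. Egr2 was at -1.065 (SE 0.75, adjusted p = 0.516 in edgeR), Fos at -0.47 (SE 0.78), Junb at -0.40 (SE 0.56), Egr1 at -0.39 (SE 0.45), Jund at -0.08 and Fosl2 at -0.06. Fosb was at 0.19, Egr4 at 0.03 and Egr3 at 0.02. Without NS replicate 1 all members except Jun were positive, with a median of 0.33 in place of -0.24. Egr4 then passed at 0.40 (SE 0.09, adjusted p = 0.0304 in edgeR), with Fosl2 at 0.25 (adjusted p = 0.0767) and Fosb at 0.42 (adjusted p = 0.0838) next. That fit lacks the library that was highest for every member. It called 2 members, Jun and Egr4, and 619 of all 15229 genes tested in it. Fos was at 0.86 (SE 0.48, adjusted p = 0.375 in edgeR).

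**Figure D4:**
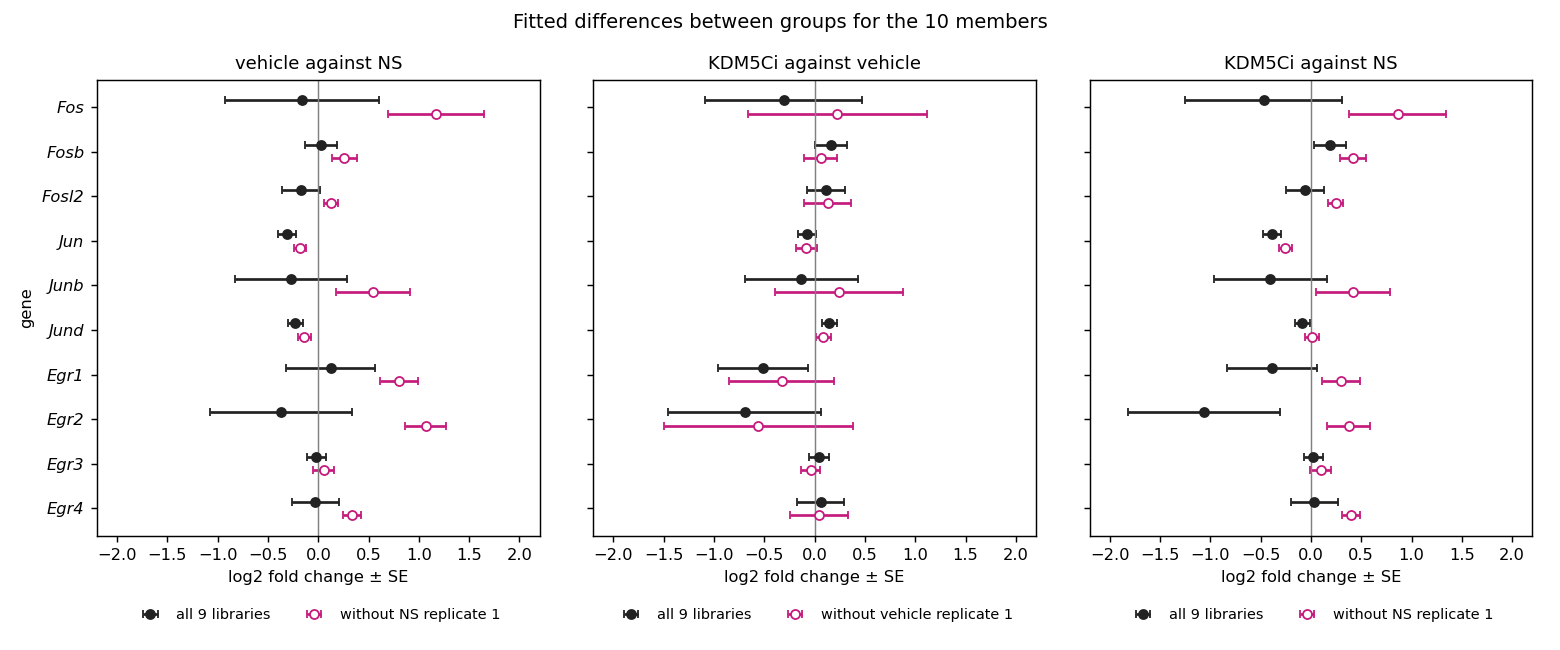
Fitted log2 fold change with its SE (horizontal axis) for each member in the 3 comparisons, from all 9 libraries (filled) and without NS replicate 1 or vehicle replicate 1 (open). Leaving out NS replicate 1 moves Fos from -0.16 to 1.17 in vehicle against NS, while Jun stays negative in every panel.

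Members were also compared with each other over the 9 libraries, in 45 pairs. Egr1 and Egr2 followed each other most closely (Pearson r = 0.971, adjusted p = 0.000248, and Spearman rho = 0.983, adjusted p = 0.00223, two-sided exact permutation tests with Benjamini-Hochberg adjustment over 45 pairs, raw p = 5.51e-06 and 4.96e-05). Without NS replicate 1 and vehicle replicate 1, the libraries farthest from the median of Egr1, r was 0.979. Fos and Junb had r = 0.970 (adjusted p = 0.00279) and rho = 0.933 (adjusted p = 0.0169) in exact permutation tests (raw p = 0.000124 and 0.00075), and r = 0.863 without the same libraries. Fos and Egr1 had r = 0.926 (adjusted p = 0.00889, raw p = 0.000593, exact permutation) and rho = 0.867 (adjusted p = 0.0507, raw p = 0.00451, exact permutation), and r = 0.672 without them.

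Several other pairs followed each other less closely when the 9 libraries were pooled over groups. Fos and Jund had r = 0.204 and Egr1 and Egr3 r = 0.0789, with rho of 0.05 and 0.35 (raw p of 0.587, 0.846, 0.912 and 0.359, adjusted p of 0.66, 0.846, 0.954 and 0.598, exact permutation). Fos and Jun had r = 0.419 and rho = 0.0667 (raw p = 0.261 and 0.880, adjusted p = 0.379 and 0.943, exact permutation), and r = -0.558 without NS replicate 1 and vehicle replicate 1. The sign of the pooled r in this pair thus rested on those libraries. Taken on deviations from group means, with all 9 libraries, r was 0.832 for Fos and Jun. It was 0.412 for Fos and Jund and 0.153 for Egr1 and Egr3, and these values were not tested. Fosb and Fosl2 had r = 0.7605 (raw p = 0.00752, adjusted p = 0.0338) and rho = 0.883 (raw p = 0.00308, adjusted p = 0.0461, exact permutation), and r = 0.830 without NS replicate 2 and vehicle replicate 1. Of the 45 pairs 14 passed an adjusted p of 0.05 by r and 3 by rho. The points share libraries, and NS replicate 1 is high in every member. The permutations shuffled libraries across groups, so differences between groups enter the tested r and rho.

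**Figure D5:**
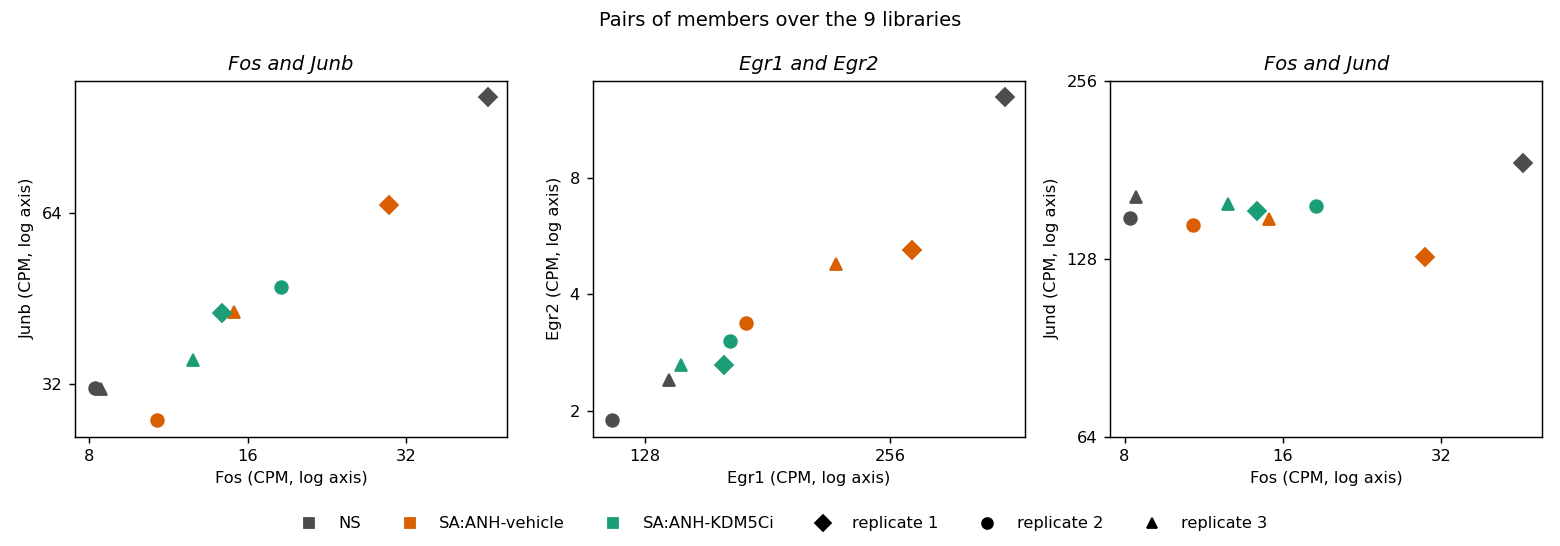
Levels in CPM (both axes logarithmic) of Fos and Junb, Egr1 and Egr2, and Fos and Jund in the 9 libraries, coloured by group and shaped by replicate. Fos and Junb, and Egr1 and Egr2, lie near a line with NS replicate 1 at the upper end, while Jund stays between 129 and 186 CPM across the range of Fos.

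Among 13490 genes with a mean of at least 1 CPM, the 3 whose log2 CPM followed each member most closely over the 9 libraries were listed as a description. For Fos they were Junb (r = 0.970), Dusp6 (r = 0.941), a phosphatase that switches off ERK, and Nr4a1 (r = 0.931), an orphan nuclear receptor gene induced by activity. Junb was nearest to Nr4a1 (r = 0.984). Nr4a1 was at 141, 47.0 and 39.9 CPM in NS, 80.1, 33.9 and 61.4 CPM in the vehicle group and 55.7, 60.6 and 50.3 CPM in the inhibitor group. After each other, Egr1 and Egr2 were nearest to Upp1 (r = 0.943 and 0.949), a uridine phosphorylase, and Ier5 (r = 0.927 and 0.959), an early response gene. Fosl2 was nearest to Gadd45b (r = 0.9185), another early response gene, and Egr4 to the actin gene Actb (r = 0.954). Members with less spread had other neighbours. Jun was nearest to Cyp51 (r = 0.974), an enzyme of cholesterol synthesis, and to Dedd2 and Snx22, and Jund to Lrrc4b (r = 0.973), a synaptic adhesion molecule, Sema6b and Scand1. Fosb was nearest to Lat2 (r = 0.8915) and Egr3 to Gm20337 (r = 0.885).

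The rest of the pathway was read from lists of genes. Of 26 kinases and factors that act on the serum and cAMP response elements, all tested, none passed in any comparison in edgeR, DESeq2 or limma-voom, and their median log2 fold changes lay between -0.03 and -0.02. Those under an unadjusted p of 0.05 numbered 0 in vehicle against NS, 3 in KDM5Ci against vehicle and 2 in KDM5Ci against NS, against 8.21%, 14.2% and 18.5% of all genes. In KDM5Ci against NS those with the lowest p-values were Elk3, an SRF partner, at -0.32 (adjusted p = 0.0901 in edgeR), and Mef2c, a neuronal activity-responsive factor, at -0.18 (adjusted p = 0.1055 in edgeR). Of 16 other leucine zipper factors of the AP-1 and CREB families, Fosl1, Batf and Batf2 did not pass the filter on low counts. None of the remaining 13 passed in any comparison in edgeR, with 1, 4 and 2 under an unadjusted p of 0.05 in the same order, and DESeq2 called 1 in KDM5Ci against NS. Jdp2, a repressor that pairs with Jun, came nearest at 0.48 in KDM5Ci against NS (36.8 ± 5.46 CPM in NS, 51.1 ± 8.58 with the inhibitor, adjusted p = 0.0698 in edgeR).

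Among 8 corepressors of Egr proteins and factors of mRNA decay, 2 fell with the inhibitor against vehicle, where 2.51% of all genes were called. Zfp36l1 and Zfp36l2 encode proteins that bind AU-rich elements and speed the decay of short-lived mRNAs. Zfp36l1 went from 23.15 ± 1.29 CPM with vehicle to 13.3 ± 0.594 with the inhibitor, for a fitted log2 change of -0.80 (SE 0.08, adjusted p = 8.19e-05 in edgeR), and Zfp36l2 from 25.3 ± 0.583 to 17.2 ± 0.325 CPM, for a fitted log2 change of -0.56 (SE 0.06, adjusted p = 0.000381 in edgeR). Against NS they were at -0.89 and -0.48 (adjusted p = 2.22e-05 and 0.00107 in edgeR), and all 4 calls held when any 1 library was left out. Zfp36, the third gene of that family in the list, rose against NS by 1.055 (2.28 ± 0.498 to 4.77 ± 1.31 CPM, adjusted p = 0.0428 in edgeR), a call that held in 4 of 9 fits with 1 library left out, at up to 0.1697 in the others. Without NS replicate 2 or 3, vehicle replicate 2, or inhibitor replicate 1 or 3 it was lost. Of the 8 genes, edgeR thus called 1 higher and 2 lower against NS, where 3.97% of all genes were called. DESeq2 called 4 of the 8 there and limma-voom 2. Nab2, a corepressor that Egr1 itself induces, was at -0.27 with the inhibitor against vehicle (adjusted p = 0.381 in edgeR) and did not pass. None of the 8 passed in vehicle against NS in edgeR, DESeq2 or limma-voom, and 2 were under an unadjusted p of 0.05.

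Of the 30 other early genes none passed in vehicle against NS in edgeR, DESeq2 or limma-voom, where 2 were under an unadjusted p of 0.05 and the median was -0.06. With the inhibitor against vehicle 2 rose and 1 fell, against 2.51% of all genes called, with a median of 0.10. DESeq2 and limma-voom each called 4 of 30 there, and 11 of 30 were under an unadjusted p of 0.05, against 14.2% of all genes. Apold1, an endothelial early gene, rose from 5.28 ± 0.788 to 15.2 ± 1.28 CPM, for a fitted log2 change of 1.52 (SE 0.15, adjusted p = 0.000122 in edgeR). Plk2, a kinase of synaptic scaling, rose by 0.27 (adjusted p = 0.00995 in edgeR, 0.0597 without vehicle replicate 2). Rgs2, an inhibitor of G protein signalling, went from 52.6 ± 3.19 to 40.2 ± 1.16 CPM, for a fitted log2 change of -0.39 (adjusted p = 0.00789 in edgeR). Against NS Apold1 and Plk2 rose as well, by 1.32 and 0.27 (adjusted p = 0.000254 and 0.009165 in edgeR, the latter 0.0588 without NS replicate 2), and the median was 0.17. These 2 of 30 compare with 3.97% of all genes, DESeq2 and limma-voom each called 3, and 12 of 30 were under an unadjusted p of 0.05, against 18.5% of all genes. Endothelial markers, of which Apold1 is not one, had 1 of 9 called higher and 3 lower in both comparisons with the inhibitor group, with sums from 308.5 to 318 CPM in NS, 314.9 to 334 in the vehicle group and 332 to 396 in the inhibitor group, and their part in the Apold1 values was not tested.

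Of 14 late effector genes only Homer1, a synaptic scaffold with a short activity-induced form, passed, and only in KDM5Ci against NS, at 203 ± 15.2 CPM in NS and 263 ± 18.7 with the inhibitor, for a fitted log2 change of 0.37 (adjusted p = 0.01445 in edgeR, 0.0560 without inhibitor replicate 3). This 1 of 14 in edgeR compares with 3.97% of all genes, while DESeq2 called 2 and limma-voom 1. Under an unadjusted p of 0.05 there were 6 of the 14, against 18.5% of all genes. In vehicle against NS and in KDM5Ci against vehicle 3 of the 14 were, against 8.21% and 14.2% of all genes. DESeq2 and limma-voom called 0 in each of these. Of 12 genes reported in other work as targets of AP-1 or Egr factors, none passed in any comparison in edgeR, DESeq2 or limma-voom (1, 1 and 3 under an unadjusted p of 0.05), and their medians lay between -0.05 and -0.01.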

How the data were processed

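Expected counts per gene, as deposited by the authors, were used for 9 libraries; 15.7% of values above 0 were whole within 1e-06. Libraries were made from 1 ug of total RNA with a strand-specific kit, per the labels' protocols. Reads were processed with Trimmomatic 0.32, TopHat2 2.0.13, Bowtie2 2.2.3 and the mm10 genome, as the submitters' processing notes list them. The counting tool is not given in the sources used here. In all, the table held 0 columns of other samples, and 32947 of 36172 IDs matched a symbol. Counts were rounded. edgeR 4.0.16 (R 4.3.3) was used with filterByExpr, TMM factors (0.987 to 1.01) and a robust quasi-likelihood fit of all 9 libraries with 1 mean per group, which was tested on simulated data first. P-values were adjusted by Benjamini-Hochberg over 15144 genes at 0.05. CPM values use TMM-scaled library sizes, and log2 CPM has a prior count of 2. The SE is the log2 fold change over the square root of F. No member was at 0 in any library, and 68 counts was the lowest value. Alternatives were DESeq2 1.42.0, limma-voom (limma 3.58.1), other scalings and filters, fits of 2 groups at a time, without robust moderation, with a replicate block, and with each library left out in turn. All members were named, with up to 4 genes of lowest p per list and the 3 genes nearest to each member. The members, lists and rules were chosen with earlier results of these data known. Protein sequences were not used here.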

Additional observations from a re-analysis of the deposited data

How the results depend on the processing

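No member was called in vehicle against NS or in KDM5Ci against vehicle under any setting tried. In KDM5Ci against NS the 1 called member, Jun, was kept under 8 of 9 other settings, and 0 were called when only the 2 groups compared were fitted; with 1 library left out at a time the count ran from 0 to 2. Fitted changes of the members kept their direction and side of the threshold in 265 of 270 cases over the other settings. The exceptions were that Jun call and, in vehicle against NS, changes of sign with limma-voom for Fos (0.21), Egr2 (0.16) and Egr4 (0.03) and with the replicate block for Fos (0.03). With 1 library left out, 233 of 270 cases were the same, 4 lost a call, 1 gained one and 32 changed sign. In vehicle against NS the log2 fold changes then ran from -0.70 to 1.17 for Fos, -0.11 to 0.26 for Fosb, -0.31 to 0.13 for Fosl2, -0.65 to 0.54 for Junb, -0.16 to 0.80 for Egr1, -0.80 to 1.07 for Egr2, -0.12 to 0.06 for Egr3 and -0.22 to 0.34 for Egr4. In KDM5Ci against vehicle they ran from -0.58 to 0.23 for Fos, -0.39 to 0.25 for Junb and -0.04 to 0.11 for Egr3. In KDM5Ci against NS they ran from -0.86 to 0.86 for Fos, -0.19 to 0.25 for Fosl2, -0.69 to 0.41 for Junb, -0.16 to 0.01 for Jund, -0.67 to 0.29 for Egr1, -1.49 to 0.37 for Egr2, -0.07 to 0.10 for Egr3 and -0.15 to 0.40 for Egr4. The cause of these changes was not tested. All genes called in vehicle against NS numbered 2 (1244 at an unadjusted p under 0.05), but 81 with DESeq2, 11 with library size alone, 11 with every gene of at least 1 count and 17 with only the 2 groups; with 1 library left out they ran from 2 to 17 (17 without inhibitor replicate 3, 9 without inhibitor replicate 1, and 4 without vehicle replicate 1 or 3). The 380 genes called in KDM5Ci against vehicle ran from 203 (without vehicle replicate 2) to 429, and were 253 without vehicle replicate 1 and 204 without inhibitor replicate 3. The 601 called in KDM5Ci against NS ran from 269 (without NS replicate 3) to 747, and were 318 without NS replicate 2, 279 without inhibitor replicate 1 and 398 without inhibitor replicate 3. Correlations of same-numbered libraries ran from -0.144 to 0.238, and 4 of 9 libraries correlated best with a same-numbered one. These values do not decide whether the replicate numbers pair the libraries. With the replicate block 0, 0 and 1 members were called in the 3 comparisons, and Jun was at -0.38 (adjusted p = 0.0358 in edgeR) in KDM5Ci against NS. With 3 libraries a group, spreads such as those of Fos and Egr2 limit what differences could be detected.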
